A study of Mus musculus with 4 samples.

Results

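Pro-B nuclei, the early B lineage precursors among hematopoietic stem and progenitor cells (HSPCs) of mouse bone marrow, were examined in a single-nucleus multiome dataset, in which RNA and open chromatin (ATAC) are read from the same nucleus. They were chosen on RNA: nuclei with at least 2 unique molecular identifiers (UMIs) of Ebf1 and Pax5 together, at least 1 UMI of Gfra2, Cplx2 and Cecr2 together, and more UMIs of these 3 genes than of Gm32569, Cacna1e and Ankrd33b. Nuclei were kept where 200 or more genes were detected and the ATAC total in peaks lay between 1000 and 50000, and of the 13619 that passed, 1120 met the rule. The cells came from C57BL/6 mice aged 8 weeks, either unligated for 14 days (Ctrl) or carrying silk ligatures around second molars of both jaws for 14 days to cause periodontitis (Lig). Each group was 1 sample, a pool of 5 mice, and all cells of both groups were sorted as lineage-negative and cKit-positive, so B precursors that had lost cKit were gated out. The lineage antibodies that the study lists include anti-B220, against the B cell form of CD45, which removes B precursors that carry it. The deposited matrix holds the nuclei of both samples, told apart by a barcode suffix (1 or 2) that the labels do not link to Ctrl or Lig. The nuclei of each suffix are called library 1 and library 2, stand in no group, and are not compared as Ctrl and Lig.

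B cells arise in bone marrow from lymphoid progenitors that respond to interleukin 7 through its receptor. The factors TCF3 (E2A), EBF1, FOXO1 and PAX5 switch on the B program, and pro-B cells then use RAG1, RAG2 and the polymerase TdT (Dntt) to join the gene segments of the immunoglobulin heavy chain. A cell that makes a heavy chain displays it with the surrogate light chain (VPREB1, IGLL1) and CD79A and CD79B as the pre-B receptor, divides and becomes a pre-B cell.

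Open regions in pro-B nuclei are shown first, because they were not used to choose the nuclei. The 4 windows below are the central 200 bases of peaks among the 12 with the greatest excess of ATAC counts in pro-B nuclei (GRCm38, plus strand). The window on chromosome 13 belongs to the highest peak and lies past the 3′ end of Cplx2, and the windows on chromosomes 2, 15 and 19 were chosen, after their values were seen, because they hold the EBF letters. The fifth sequence is the 250 bases before the RefSeq start of Igll1 (GRCm38, minus strand), whose promoter ratio was among the highest of the listed genes. Capitals mark matches, on either strand, to 5 sets of letters: CCCNNGGGA for EBF, CAGCTG for the E-box, CAGGTG for a variant of it, GTAAACA for FOXO and TGTGGTT for RUNX. On the chromosome 15 window the 3 runs of capitals each hold EBF matches that overlap on opposite strands or stand alone.
chr13:54425381-54425580: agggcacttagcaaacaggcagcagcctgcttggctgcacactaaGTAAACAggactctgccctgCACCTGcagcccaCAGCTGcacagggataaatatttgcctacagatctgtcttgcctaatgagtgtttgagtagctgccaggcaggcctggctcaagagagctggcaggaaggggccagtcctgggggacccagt
chr2:35737721-35737920: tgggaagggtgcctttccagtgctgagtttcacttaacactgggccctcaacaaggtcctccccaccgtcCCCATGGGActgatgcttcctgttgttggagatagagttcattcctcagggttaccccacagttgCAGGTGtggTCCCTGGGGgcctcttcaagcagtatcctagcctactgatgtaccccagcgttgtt
chr15:74936676-74936875: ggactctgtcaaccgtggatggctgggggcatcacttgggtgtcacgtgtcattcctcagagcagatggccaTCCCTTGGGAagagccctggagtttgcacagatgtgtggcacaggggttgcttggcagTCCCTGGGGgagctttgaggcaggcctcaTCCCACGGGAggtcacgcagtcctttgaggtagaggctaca
chr19:25315811-25316010: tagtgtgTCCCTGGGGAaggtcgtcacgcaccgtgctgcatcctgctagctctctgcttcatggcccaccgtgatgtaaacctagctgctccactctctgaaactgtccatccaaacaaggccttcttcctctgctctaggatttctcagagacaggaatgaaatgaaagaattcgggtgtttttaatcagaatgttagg
Igll1 promoter, chr16:16863986-16864235: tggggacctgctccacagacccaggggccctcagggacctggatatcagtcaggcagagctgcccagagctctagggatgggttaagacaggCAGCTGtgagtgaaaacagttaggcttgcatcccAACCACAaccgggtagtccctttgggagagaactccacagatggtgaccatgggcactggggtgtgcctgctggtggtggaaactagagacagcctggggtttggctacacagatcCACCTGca

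Pro-B nuclei made up 14.7% of kept nuclei in library 1 (866 of 5905; exact 95% binomial interval 13.8 to 15.6) and 3.29% in library 2 (254 of 7714; 2.91 to 3.72). Intervals throughout are at the 95% level and count only the error of counting; with 1 sample per group there are no replicates and no tests were made. Other nuclei with at least 2 UMIs of Ebf1 and Pax5 served as the nearest comparison. In 94 nuclei of library 1 and 24 of library 2, Gm32569, Cacna1e and Ankrd33b had more UMIs than Gfra2, Cplx2 and Cecr2 (later B precursor nuclei), and in 289 and 147 neither side did (unsplit B nuclei, of which 234 and 138 had no UMI of either side and 55 and 9 were ties). The remaining 4656 and 7289 nuclei are called non-B nuclei. Median depth was 1730.5 and 1417 UMIs in pro-B nuclei, 1222 and 1263 in unsplit B nuclei, 840 and 916 in later B precursor nuclei, and 1661.5 and 1524 in non-B nuclei, so pro-B nuclei were the deepest of the 3 B sets. Median ATAC counts were 18499 and 14048.5 in pro-B nuclei, 14267 and 10106 in unsplit B nuclei and 10348 and 8664.5 in later B precursor nuclei. The 2 libraries shared 146 of their barcodes, of which 72 were kept and 0 were pro-B nuclei.

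Ebf1 was seen in nearly every pro-B nucleus, whereas the early side of the rule was in most nuclei met by a single gene. Ebf1 had a UMI in 99.8% of pro-B nuclei in library 1 and 99.6% in library 2, whereas Pax5, the commitment factor downstream of EBF1, had one in 47.6% and 19.7%. Cplx2, a complexin known from vesicle fusion in neurons and in mast cells, had a UMI in 67.9% and 77.2%. Cecr2, a bromodomain subunit of chromatin remodellers, had one in 62.4% and 39.8%. Gfra2, a co-receptor for neurturin, had one in 28.5% and 12.6%. A single gene of these 3 was present in 51.3% of pro-B nuclei in library 1 and 72.8% in library 2, and all 3 in 10.0% and 2.36%. Cplx2 alone accounted for 51.6% of the pro-B nuclei of library 2 against 24.7% in library 1. Later-side genes had a UMI in 109 and 14 pro-B nuclei.

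Nuclei near the edges of the rule are described by genes that it does not count. The 72 and 79 pro-B nuclei with exactly 2 UMIs of Ebf1 and Pax5 had Blnk at 721 and 229 counts per 1000000 UMIs of their set (CPM). Just outside, the 44 and 92 nuclei with 1 such UMI that met the rest of the rule had 358 and 329 CPM. On the other edge, nuclei with 1 UMI of the 3 early genes (228 and 105) had Blnk at 634 and 224 CPM, and those with 0 (234 and 138) had 546 and 299 CPM. Dntt was 221 and 151 CPM just inside that edge and 300 and 177 CPM just outside it. Lef1 was 416 and 211 CPM inside and 260 and 193 CPM outside, Vpreb1 285 and 211 against 243 and 142, and Igll1 148 and 125 against 116 and 50.7. Against nuclei with 0 early UMIs Lef1, Vpreb1 and Igll1 were thus higher inside in both libraries, Dntt lower, and Blnk higher in library 1 and lower in library 2, from 10 to 218 UMIs a value. In library 2 these were 32 against 38 UMIs for Lef1, 32 against 28 for Vpreb1, 19 against 10 for Igll1 and 23 against 35 for Dntt. No intervals were computed at these edges, so such differences were not told apart from counting error. The ties, which also lie outside (55 and 9 nuclei), went the other way in library 1, with Lef1 at 1024, Vpreb1 at 388 and Igll1 at 264 CPM. Across the edge on Ebf1 and Pax5, Blnk was likewise higher inside in library 1 and lower in library 2.

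Chromatin at Ebf1, Pax5, Gfra2, Cplx2 and Cecr2 was more open in pro-B than in non-B nuclei. Summed over each gene and 20 kb on either side, Ebf1 (chr11:44617317-45008091, plus strand) had 306 ATAC counts per 1000000 peak counts of the set (ATAC CPM) in pro-B nuclei of library 1 and 322 in library 2, against 69.8 and 74.2 in non-B nuclei, ratios of 4.39 (4.17 to 4.62) and 4.35 (4.0002 to 4.72). At Pax5 (chr4:44524757-44710487, minus strand) the ratio over non-B nuclei was 2.99 and 2.92. Cplx2 (chr13:54371349-54383917, plus strand) stood at 132 and 126 ATAC CPM against 38.5 and 37.5, a ratio of 3.42 and 3.36. For Gfra2 (chr14:70890120-70979838, plus strand) the values were 163 and 144 against 67.3 and 61.6, and for Cecr2 (chr6:120666369-120771190, plus strand) 106 and 105 against 47.0 and 48.6. All 5 loci were thus above non-B nuclei by more than counting error in each library, and so, by less, were the loci of the later side, Gm32569 (1.56 and 1.63), Cacna1e (1.36 and 1.45) and Ankrd33b (1.26 and 1.39).

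Against unsplit B nuclei, in which the early genes were mostly not seen as RNA, the Gfra2 locus was open to a like degree. Its ratio of pro-B over unsplit B nuclei was 1.07 (0.9501 to 1.20) in library 1 and 1.03 (0.840 to 1.28) in library 2, intervals that hold 1. The ratio was 0.911 (0.796 to 1.04) and 1.30 (1.002 to 1.71) at Cecr2 and 1.21 (1.06 to 1.39) and 1.17 (0.928 to 1.48) at Cplx2. At Ebf1 it was 1.19 (1.09 to 1.30) and 1.22 (1.06 to 1.42), above 1 in both libraries. Later B precursor nuclei, chosen by other RNAs, had a Gfra2 locus at 193 and 109 ATAC CPM and a Cplx2 locus at 94.7 and 124. Pro-B over later B precursor ratios were 0.847 (0.698 to 1.04) and 1.32 (0.788 to 2.39) at Gfra2, 1.39 (1.06 to 1.86) and 1.02 (0.625 to 1.78) at Cplx2, and 0.954 (0.740 to 1.25) and 2.22 (1.03 to 5.82) at Cecr2. The loci of the later side went the other way: Ankrd33b stood at 154 and 164 ATAC CPM in pro-B and at 225 and 272 in later B precursor nuclei, a ratio of 0.686 (0.573 to 0.827) and 0.602 (0.429 to 0.868). Gm32569 had a ratio of 0.515 (0.399 to 0.675) and 0.563 (0.326 to 1.05), and Cacna1e, a calcium channel subunit, 0.778 (0.631 to 0.969) and 0.761 (0.503 to 1.20). The split between pro-B and later B precursor nuclei on RNA was therefore matched in both libraries by ATAC at Ankrd33b, by the interval of 1 library at Gm32569, Cacna1e, Cplx2 and Cecr2, and by neither at Gfra2.

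**Figure D1:**
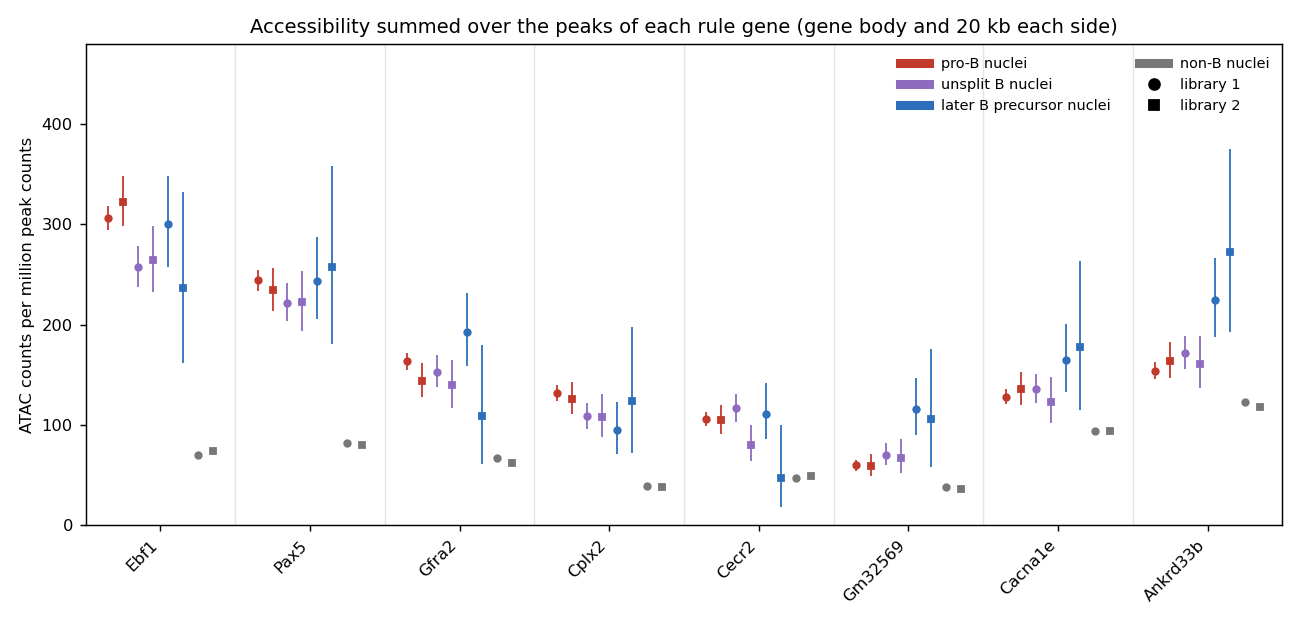
ATAC CPM (vertical axis) summed over the peaks of each gene of the rule and 20 kb on either side, for pro-B, unsplit B, later B precursor and non-B nuclei; circles are library 1, squares library 2, and bars are exact 95% Poisson intervals on pairs of counts. At Ebf1 the pro-B values of 306 and 322 lie far above the non-B values of 69.8 and 74.2, and at Gm32569 and Ankrd33b the later B precursor nuclei lie above the pro-B nuclei.

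Peak by peak, 6 of the 7 tested peaks at Ebf1 and 3 of 3 at Cplx2 had at least 2-fold higher ATAC CPM in pro-B than in other kept nuclei in both libraries, where 4.56% of all tested peaks did. The counts were 7 of 10 at Pax5, 2 of 6 at Gfra2 and 1 of 5 at Cecr2, and 0 of 4 at Gm32569, 0 of 8 at Cacna1e and 2 of 12 at Ankrd33b. Past 2-fold lower were 1 peak at Cecr2 and 3 at Ankrd33b, and 0 at the other genes of the rule, where 21.2% of all tested peaks were. At Gfra2 the higher of both peaks lay at -5673 bp from the start (chr14:70883993-70884901), with 72.3 and 64.4 ATAC CPM and ratios of 8.21 and 13.0. In Pax5 a peak in the intron, at 4295 bp from the start (chr4:44705780-44706605), had ratios of 8.80 and 15.5, above the 4.59 and 4.20 of the peak at the start. At Cecr2 the peak at the start carried the difference, with 64.7 and 62.2 ATAC CPM and ratios of 3.66 and 4.09.

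Promoters were taken as the peaks within 1 kb of a gene start in the GENCODE annotation. They were past 2-fold higher in pro-B nuclei at 2.41% of 19938 genes and past 2-fold lower at 6% of them. All 5 rule genes were among the higher. The Ebf1 promoter held 56.1 ATAC CPM in library 1 and 60.3 in library 2, against 13.5 and 13.3 in other nuclei (4.16-fold, 3.69 to 4.68, and 4.54-fold, 3.73 to 5.49). Cplx2 was nearest to the 2-fold limit at 2.16 (1.94 to 2.41) and 2.32 (1.86 to 2.86), and with at least 500 genes per nucleus its ratio in library 2 was 1.57, under the limit. Of the later side, 0 of 3 genes passed it (1.10 to 1.68).

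Among the listed genes, the promoters with the highest ratios belonged to the B program. Pou2af1, which encodes the coactivator OBF1 of B cells, held 62.4 and 54.4 ATAC CPM in pro-B nuclei and 4.98 and 3.06 in others, a ratio of 12.5 (10.8 to 14.6) and 17.8 (14.0 to 22.6). Igll1, part of the surrogate light chain, had 54.4 and 60.0 against 6.15 and 5.16 (8.85-fold, 7.65 to 10.2, and 11.6-fold, 9.37 to 14.4). Cd79a had 48.8 and 49.5 against 6.71 and 6.15 (7.27- and 8.06-fold). Among the 21 B lineage transcription factors tested, 6 were past 2-fold higher (Ebf1, Pax5, Spib, Lef1, Pou2af1 and Id3) and 0 lower, or 4 of 19 without Ebf1 and Pax5, and among 13 genes of the pre-B receptor and its signalling 5 were higher (Igll1, Vpreb2, Cd79a, Blk and Pik3ap1). Of all tested promoters 2.41% were past 2-fold higher and 6% lower. Rag1 (6.11- and 6.49-fold) and Rag2 (2.76- and 3.38-fold), the recombinase genes, were the 2 of 8 recombination genes that passed. Of the genes used later in the lineage, 3 of 11 in the pre-B list, among them Igkc (2.01- and 2.14-fold), and 2 of 8 in the mature B list were higher, and Ciita of the latter was past 2-fold lower. The 2 were Ms4a1, which encodes CD20 (3.73- and 6.77-fold), and Cd22 (5.06- and 3.66-fold), and the median log2 ratio of the mature B list was -0.16 and -0.14.

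Not every gene of the program followed. Peaks within 1 kb of the GENCODE start of Vpreb1 (chr16:16870843, minus strand) held 38.4 and 41.7 ATAC CPM in pro-B nuclei. Other kept nuclei held 40.5 and 38.4 there (0.947 and 1.09), although Vpreb1 RNA differed by several fold. The RefSeq promoter of Vpreb1 (chr16:16869256-16869505) lies outside that window and overlapped 0 peaks. These values therefore do not show how open the RefSeq promoter was. Blnk (1.98 and 1.84), Il7r (1.78 and 1.90), Foxo1 (1.51 and 1.57) and Cd79b (1.57 and 1.57) stayed under the limit. Promoters of 27 S phase and 27 G2/M genes gave 0 past 2-fold in either direction, with median log2 ratios of 0.33 and 0.28 for S phase and 0.23 and 0.30 for G2/M, where the median over all tested promoters was 0.08 and 0.10. Among promoters of other lineages, past 2-fold lower were 3 of 4 granulocyte-monocyte genes, such as Mpo (0.234 and 0.186), 5 of 6 neutrophil, 2 of 4 monocyte, 2 of 3 megakaryocyte and 1 of 3 stem genes, where 6% of all tested promoters were. None passed of 3 erythroid, 2 basophil, 3 plasmacytoid dendritic and 4 NK and T genes.

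Against later B precursor nuclei no rule gene's promoter differed beyond counting error. The ratios were 0.959 and 1.66 at Ebf1, 1.86 and 0.941 at Pax5, 1.02 and 4.03 at Gfra2, 1.52 and 0.549 at Cplx2, and 0.917 and 1.43 at Cecr2, and each interval held 1.

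Across the genome 2877 of 63031 tested peaks were past 2-fold higher in pro-B than in other kept nuclei in both libraries, and 13367 (21.2%) past 2-fold lower. Of the higher peaks 5.25% lay within 1 kb of a coding gene start, against 20.1% of all tested peaks and 2.97% of the lower peaks. The highest was chr13:54425051-54425911, with 51.0 and 46.1 ATAC CPM against 3.10 and 2.26, a ratio of 16.4 (13.7 to 19.9) and 20.4 (15.5 to 26.6), which lies between genes, 43368 bp from the start of Thoc3. It was followed by chr10:43745776-43746664 (16.3 and 24.6), a peak over an exon of Wdfy3 (chr5:101935670-101936544, 15.8 and 16.9), chr2:35737362-35738279 (14.7 and 20.05), a peak over an exon of Fetub (chr16:22938930-22939785, 14.3 and 23.0) and chr10:118976096-118976974 (14.2 and 17.1). The peaks of the other windows printed above, chr15:74936322-74937230 and chr19:25315476-25316345, had ratios of 13.0 and 16.0 and of 12.9 and 17.0.

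These regions were open in the other B nuclei as well. The chromosome 13 peak had 25.5 and 31.1 ATAC CPM in unsplit B nuclei and 42.2 and 36.3 in later B precursor nuclei. The ratio of pro-B over unsplit B nuclei was 2.003 (1.53 to 2.66) in library 1 and 1.48 (0.976 to 2.32) in library 2, and over later B precursor nuclei 1.21 (0.805 to 1.90) and 1.27 (0.525 to 4.001). When unsplit B nuclei were set against non-B nuclei, 2160 of the 2877 higher peaks (75.1%) were past 2-fold higher there too, in both libraries, where 4.14% of all tested peaks were. The same held for 145 of the 272 genes past 2-fold higher as RNA (53.3%, against 3.50% of tested genes). The unsplit B nuclei were part of the other nuclei against which those peaks and genes had been found.

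Matches to EBF and E-box letters were more frequent in the higher peaks than among all tested peaks. Within the central 300 bp, CCCNNGGGA occurred in 18.3% of the 2877 higher peaks, 6.71% of 62999 tested peaks with sequence and 3.25% of the lower peaks. CAGCTG occurred in 40.1%, 21.1% and 19.4%, and CAGGTG in 33.6%, 19.6% and 12.2%. RUNX (TGTGGTT) occurred in 17.2%, 11.2% and 15.5%, and FOXO (GTAAACA) in 5.80%, 3.23% and 3.48%. The order was turned for TTGCNNAA (CEBP), with 10.3% of higher and 24.4% of lower peaks against 13.4% of all, and for GAGGAAGT (ETS), with 8.62% and 16.6% against 9.41%. The letters AGATAA, a motif of GATA factors, were in 9.80% of higher, 14.0% of lower and 10.2% of all tested peaks. Median GC content was 52% in higher and tested peaks and 48.3% in lower peaks. Over 27025 RefSeq promoters, CCCNNGGGA was found in 5.53%, CAGCTG in 12.8%, CAGGTG in 17.1% and TGTGGTT in 4.46%, of which the Igll1 promoter printed above held the last 3. These are counts of letters on both strands, and no binding was measured.

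**Figure D2:**
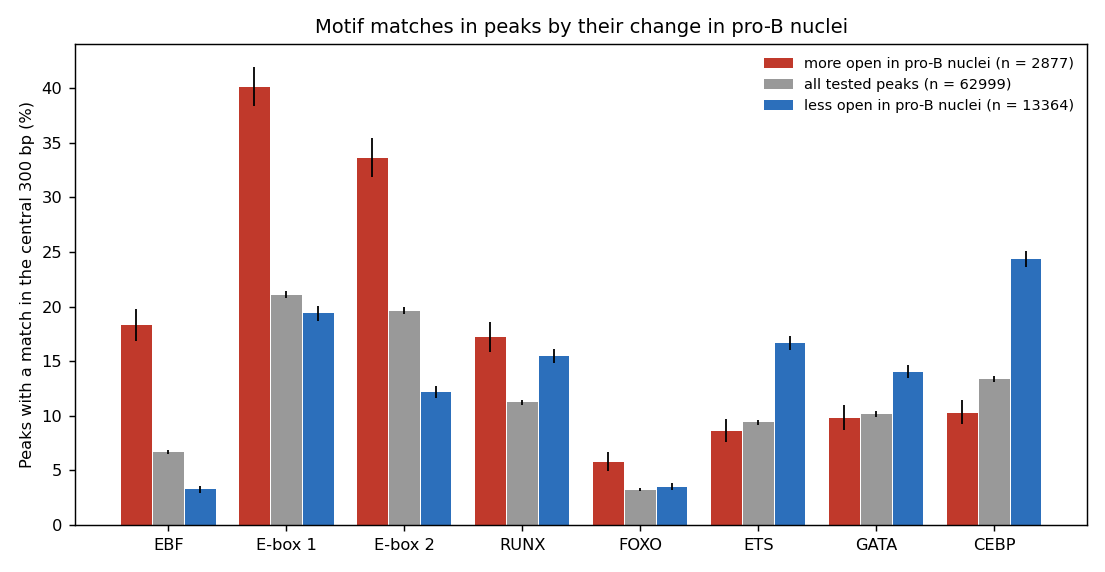
Share of peaks (vertical axis, percent) whose central 300 bp hold a match to each motif, for peaks past 2-fold more open in pro-B nuclei, all tested peaks and peaks past 2-fold less open; bars are exact 95% binomial intervals. E-box 1 is CAGCTG and E-box 2 is CAGGTG; the EBF share is 18.3% in more open and 3.25% in less open peaks, and the CEBP share is 10.3% and 24.4%.

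RNA of genes that the rule did not count is given as a description, since the nuclei were chosen on RNA of the same libraries. Among the 6397 genes that reached 100 UMIs per library, 272 (4.25%) were past 2-fold higher in pro-B than in other kept nuclei in both libraries and 236 (3.69%) past 2-fold lower, around a median log2 ratio of 0.09 in library 1 and 0.14 in library 2. Of the genes outside the rule, Lef1, a factor of WNT signalling that is active in B precursors, had the highest ratio by the less extreme library: it stood at 530 and 232 CPM against 37.9 and 11.8 (14.0-fold, 12.3 to 15.9, and 19.6-fold, 15.0 to 25.6). Blnk, the adaptor that links the pre-B receptor to its kinases, stood at 715 and 332 CPM against 56.2 and 20.6 (12.7- and 16.1-fold). Akap12, a scaffold of protein kinase A, was at 195 and 112 CPM against 14.3 and 7.26 (13.6- and 15.5-fold). Pde2a, a phosphodiesterase that cleaves cyclic nucleotides, was at 350 and 200 CPM against 32.2 and 17.4 (10.8- and 11.5-fold). Gfra1, co-receptor for GDNF and a relative of Gfra2, was at 266 and 85.4 CPM against 24.3 and 7.83 (10.9-fold in both). St3gal6 (9.48- and 18.9-fold), Tmem108 (11.2- and 8.45-fold) and Vpreb1 (7.60- and 11.9-fold) completed the 12 highest with the rule genes. The other kept nuclei include the unsplit B and later B precursor nuclei, which carry such genes. In non-B nuclei alone Lef1 stood at 10.2 and 7.74 CPM and Blnk at 22.0 and 14.8 CPM. For both genes the ratios over other kept nuclei were thus lower than over non-B nuclei, more so in library 1. The 8 lowest were Gpr141, Rab44, Card9, Aoah, Nrg1, Lonrf3, Pstpip2 and Dock5. Gpr141 had 7 and 2 UMIs in pro-B nuclei, or 4.43 and 4.88 CPM against 66.5 and 71.3.

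**Figure D3:**
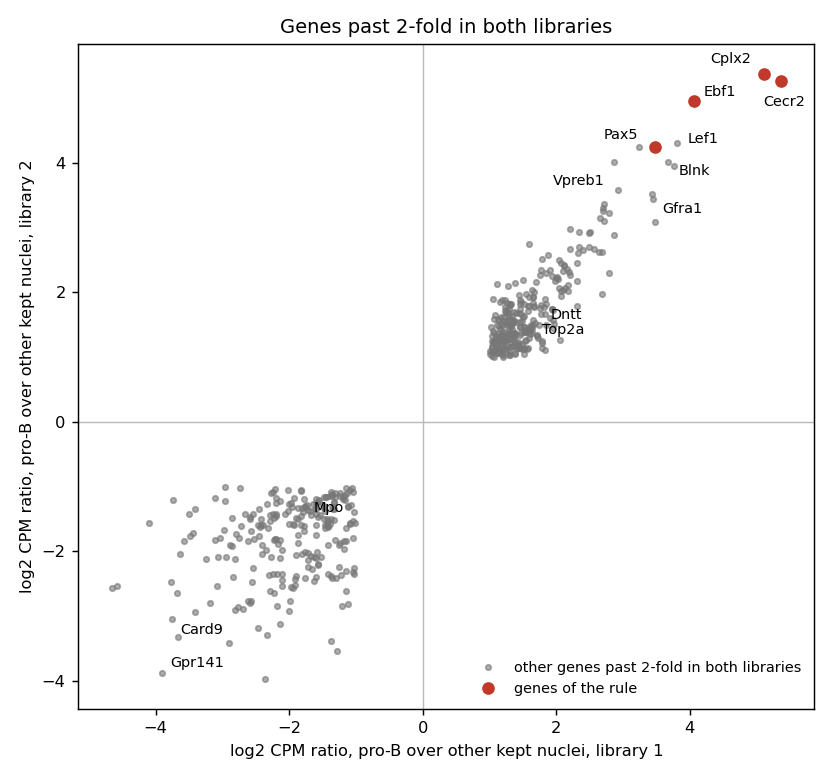
Log2 CPM ratio of pro-B over other kept nuclei in library 1 (horizontal) and library 2 (vertical) for the 272 genes past 2-fold higher and 236 past 2-fold lower in both libraries; genes of the rule are large points. Cplx2 and Cecr2, at ratios of 34.6 to 41.2, lie at the top right, Lef1, Akap12 and Blnk lie near Pax5, and Gpr141 lies at the bottom left.

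By role, of 14 tested B lineage factors that the rule does not count, 5 were past 2-fold higher (Foxo1, Tcf3, Bach2, Lef1 and Erg) and 0 lower. Of all tested genes 4.25% were higher and 3.69% lower. With Ebf1 and Pax5, which chose the nuclei, the count is 7 of 16. Summed over the whole list, Ebf1 and Pax5 included, pro-B over later B precursor nuclei gave a ratio of 0.824 (0.781 to 0.870) and 0.798 (0.697 to 0.917). In library 1 Ebf1 alone gave 7535 of the 18379 UMIs in pro-B and 546 of the 1435 in later B precursor nuclei. That ratio thus rests in part on genes that chose both sets, and it was not computed without them. In library 1 Foxo1 (0.437), Bach2 (0.618) and Lef1 (0.611) had intervals below 1 over later B precursor nuclei, and in library 2 their intervals held 1. Ebf1, which the rule counts, stood at 4773 and 2288 CPM. Bach2, a repressor that guards B cell development, was at 1072 and 461 CPM against 170 and 52.2 (6.30- and 8.83-fold), and Foxo1 at 280 and 105 CPM against 40.4 and 11.2 (6.93- and 9.35-fold). Spi1, which encodes PU.1 of myeloid cells and B cells, was at 15.2 and 12.2 CPM against 29.9 and 24.1, just short of 2-fold lower (0.508 and 0.506).

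Of 10 tested genes of the pre-B receptor and its signalling 7 were past 2-fold higher, where 4.25% of all tested genes were. They were Igll1, Vpreb1, Cd79b, Ighm, Blnk, Syk and Pik3ap1. Vpreb1 was at 288 and 188 CPM against 37.9 and 15.7, and Igll1 at 155 and 105 CPM against 21.3 and 6.51 (7.24- and 16.1-fold). Vpreb1 has a near-identical copy, Vpreb2, and reads shared by both could have been dropped, so their levels are uncertain. Ighm, the heavy chain locus of IgM, was at 308 and 95.1 CPM against 73.4 and 24.7 (4.20- and 3.85-fold). Cd79a was under the minimum for testing, at 91.8 and 41.5 CPM against 16.8 and 4.87.

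Among recombination genes Dntt alone of 5 tested was past 2-fold higher, where 4.25% of all tested genes were. Dntt stood at 236 and 139 CPM against 68.8 and 39.7 (3.42-fold, 2.999 to 3.90, and 3.50-fold, 2.61 to 4.61). Rag1, under the minimum for testing, had 62 and 9 UMIs (39.3 and 22.0 CPM against 7.34 and 2.80). Il7r was the single gene of 8 in the IL-7 and early lymphoid list to pass (134 and 92.7 CPM against 20.7 and 9.40, 6.50- and 9.86-fold), while Flt3, the receptor of earlier lymphoid progenitors, was at 70.9 and 68.3 CPM against 142 and 86.1 and Kit at 77.9 and 58.5 CPM against 149 and 73.9. Of partners of the rule genes, Ret, the signalling receptor that GFRA2 and GFRA1 serve, had 1 and 0 UMIs in pro-B nuclei. Complexin genes other than Cplx2, and the SNARE gene Snap25, were at 0 UMIs, while the SNARE gene Vamp2 was at 21.5 and 17.1 CPM against 26.9 and 14.98. Smarca1, a remodeller ATPase known as a partner of CECR2, was at 0, and Smarca5, its relative, was at 341 and 220 CPM against 230 and 147 (1.49-fold in both). Gfra2 fell under the minimum for testing, with 315 and 38 UMIs.

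Of the markers of other lineages, past 2-fold lower in pro-B nuclei were 2 of 3 tested stem genes (Mecom and Hlf), 2 of 4 granulocyte-monocyte genes (Mpo and Ctsg), 4 of 6 neutrophil genes, Csf1r of 3 monocyte genes and the 1 tested erythroid gene. Of all tested genes 3.69% were past 2-fold lower. The 1 tested megakaryocyte and 1 tested basophil gene did not pass, and no plasmacytoid dendritic or NK and T gene reached the minimum. Mpo, a granule enzyme, stood at 290 and 517 CPM in pro-B nuclei against 987 and 1275 in others. Summed, the granulocyte-monocyte list took 579 and 1132 CPM in pro-B nuclei and 549 and 958 CPM in erythroid nuclei, with intervals that overlap. Erythroid genes had 17 and 2 UMIs in all in pro-B nuclei (10.8 and 4.88 CPM, against 39.0 and 15.3 CPM in other kept nuclei), and 0 pro-B nuclei had 2 or more of them. Mature B genes summed to 86.8 and 39.0 CPM, with at least 2 UMIs of Ms4a1 and Bank1 in 7 and 0 pro-B nuclei. Ribosomal RNA locus genes took 40.5% and 52.6% of the UMIs in pro-B nuclei and 43.5% and 53.2% in others. The B identity of the label was thus matched by genes outside the rule. Pro-B, unsplit B and later B precursor nuclei all carried those genes. Over later B precursor nuclei the pre-B receptor list gave a ratio of 0.729 (0.655 to 0.813) in library 1 and 0.854 (0.634 to 1.17) in library 2. Gfra1 gave 0.575 (0.425 to 0.795) and 0.548 (0.214 to 1.79).

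**Figure D4:**
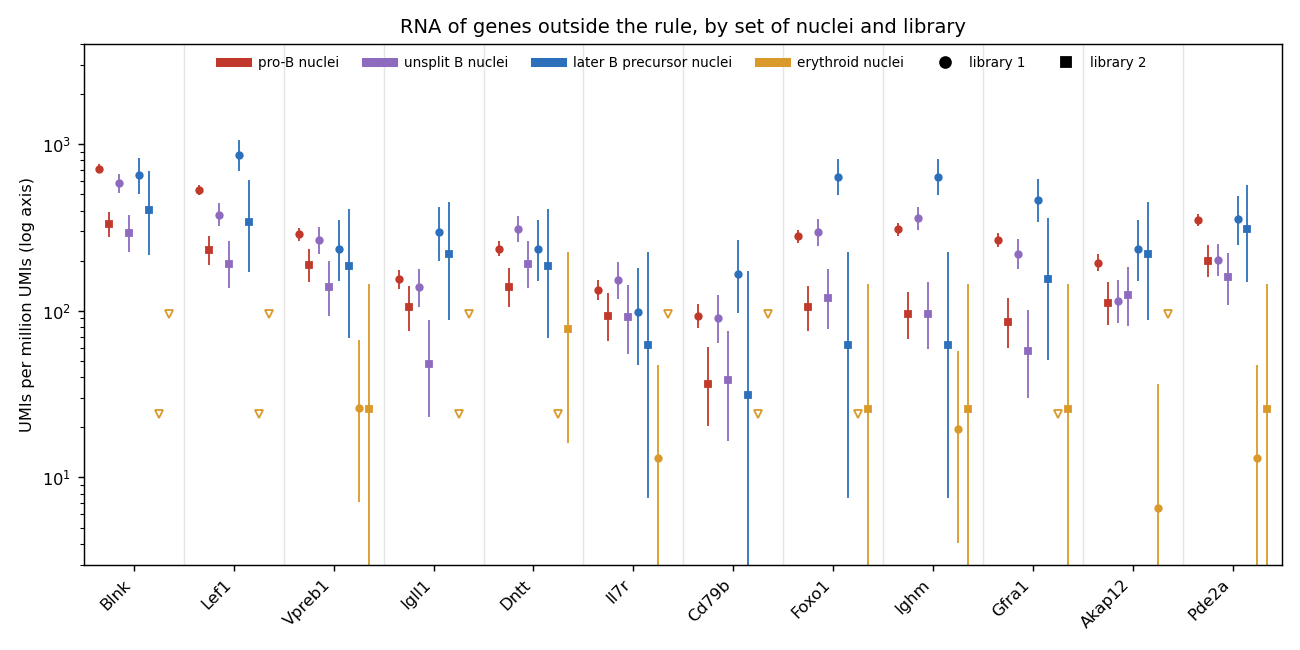
RNA level (vertical axis, CPM, log axis) of genes outside the rule in pro-B, unsplit B, later B precursor and erythroid nuclei; circles are library 1, squares library 2, bars are exact 95% Poisson intervals, and open triangles mark the upper limit of a set with 0 UMIs. Blnk stands at 715 and 332 in pro-B nuclei, at 584 and 293 in unsplit B nuclei, and at 0 in erythroid nuclei.

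Set against unsplit B nuclei, the genes of the pre-B receptor list summed to like levels, 2642 and 1276 CPM in pro-B and 2737 and 1235 CPM in unsplit B nuclei, a ratio of 0.965 (0.904 to 1.03) and 1.03 (0.888 to 1.20). Vpreb1 was at 266 and 139 CPM in unsplit B nuclei, and Igll1 gave a ratio of 1.11 (0.834 to 1.51) and 2.18 (1.08 to 4.87). Recombination genes were lower in pro-B than in unsplit B nuclei in both libraries, at a ratio of 0.839 (0.736 to 0.958) and 0.712 (0.540 to 0.9403), with Dntt at 0.758 (0.619 to 0.932) and 0.723 (0.474 to 1.11). Blnk (1.23, 1.07 to 1.41), Lef1 (1.40, 1.18 to 1.67), Akap12 (1.70, 1.25 to 2.35) and Pde2a (1.72, 1.37 to 2.19) were higher in pro-B nuclei of library 1, and in library 2 their intervals held 1. Mature B genes were lower than in unsplit B nuclei in both libraries, at a ratio of 0.230 (0.181 to 0.290) and 0.369 (0.181 to 0.736). Later B precursor nuclei held mature B genes at 650 and 93.4 CPM, from 66 and 3 UMIs. Pro-B over later B precursor nuclei gave 0.134 (0.0988 to 0.182) in library 1 and 0.418 (0.120 to 2.24) in library 2.

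Of the lists outside the B program, the G2/M genes of cell division had the most members past 2-fold. Of 26 tested G2/M genes 18 were past 2-fold higher in pro-B than in other kept nuclei and 0 lower, where 4.25% of all tested genes were higher and 3.69% lower. The list had a median log2 ratio of 1.35 and 1.37 beside 0.09 and 0.14 over all tested genes. Top2a, the topoisomerase of mitotic chromosomes, was at 1084 and 729 CPM against 346 and 244 (3.13- and 2.99-fold), Mki67, which encodes the Ki-67 protein of dividing cells, at 748 and 427 CPM against 245 and 162, and Cenpf, a kinetochore protein, at 238 and 210 CPM against 58.1 and 37.1. Of 25 tested S phase genes only Clspn passed, a share near the 4.25% of all tested genes, with a list median of 0.71 and 0.50. Summed over the list, G2/M genes took 5263 CPM (5151 to 5378) in pro-B nuclei of library 1 and 3536 CPM (3357 to 3723) in library 2. They took 3287 and 2143 CPM in unsplit B nuclei, 1861 and 1930 CPM in later B precursor nuclei, 3048 and 2849 CPM in erythroid nuclei and 1815 and 1286 CPM in non-B nuclei. Pro-B over unsplit B nuclei gave a ratio of 1.60 (1.51 to 1.70) and 1.65 (1.48 to 1.84), and over later B precursor nuclei 2.83 (2.45 to 3.28) and 1.83 (1.42 to 2.40). S phase genes gave 1.93 (1.66 to 2.26) and 1.43 (1.06 to 1.97) over later B precursor nuclei, and over unsplit B nuclei 1.19 (1.12 to 1.27) and 1.02 (0.902 to 1.14). Pro-B nuclei were also the deepest of the 3 B sets in both libraries. With each nucleus thinned to 1000 UMIs, at least 1 UMI of the G2/M list was found in 92.1% (89.8 to 94.0) and 91.0% (86.2 to 94.5) of pro-B nuclei and in 78.8% (72.2 to 84.5) and 75.8% (65.9 to 84.0) of unsplit B nuclei, apart in both libraries. Later B precursor nuclei gave 75.8% (57.7 to 88.9) and 72.7% (39.0 to 94.0), apart from pro-B nuclei in library 1 and overlapping in library 2, where 11 nuclei were deep enough. At 500 UMIs, with all 24 nuclei, library 2 gave 76.7% (70.98 to 81.7) in pro-B and 50% (29.1 to 70.88) in later B precursor nuclei, which do not overlap. Erythroid nuclei at 1000 UMIs gave 84.1% (72.7 to 92.1) and 100% (17 of 17), which overlap with the pro-B nuclei or exceed them. Type I interferon genes gave 0 of 6 tested past 2-fold, and summed to 236 and 159 CPM against 215 and 131 CPM in non-B nuclei, a ratio of 1.09 (0.975 to 1.22) and 1.21 (0.928 to 1.55). Over later B precursor nuclei they gave 0.614 (0.440 to 0.877), below 1, in library 1 and 0.727 (0.334 to 1.88) in library 2.

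**Figure D5:**
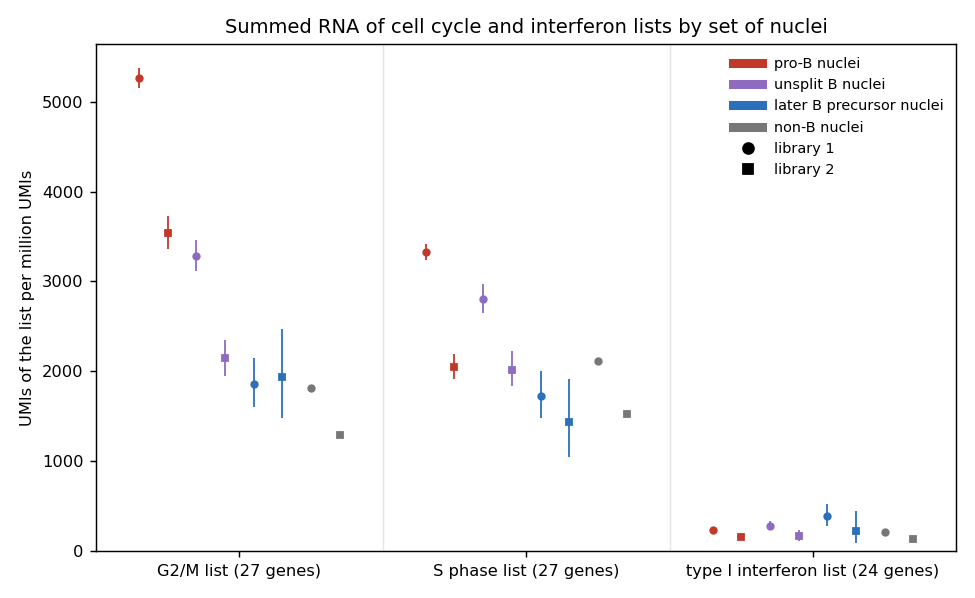
Summed RNA of the G2/M, S phase and type I interferon lists (vertical axis, CPM) in pro-B, unsplit B, later B precursor and non-B nuclei; circles are library 1, squares library 2, and bars are exact 95% Poisson intervals. For G2/M the pro-B nuclei, at 5263 and 3536, lie above the other sets of their library.

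Within the pro-B nuclei the G2/M level was highest where more than 1 early gene was seen. It was 5928 CPM (5766 to 6094) in the 422 nuclei of library 1 with UMIs of 2 or 3 early genes, 4876 CPM (4643 to 5118) in the 214 with Cplx2 alone, 4508 CPM (4042 to 5014) in the 39 with Gfra2 alone and 4062 CPM (3843 to 4291) in the 191 with Cecr2 alone. Library 2 gave 3922, 3764, 2233 and 2481 CPM in the same order, from 69, 131, 9 and 45 nuclei, with intervals that overlap between the first pair. Median depth was 1906 and 1861 UMIs in nuclei with 2 or 3 early genes and 1411.5 and 1333 in those with Cplx2 alone, and its part was not tested. In library 1 Flt3 stood at 186 CPM (101 to 311, from 14 UMIs) with Gfra2 alone and 124 CPM (87.9 to 169) with Cecr2 alone. It was lower there with Cplx2 alone, at 50.5 CPM (29.4 to 80.8), and with 2 or 3 genes, at 49.4 CPM (35.6 to 66.7). Library 2 did not show this order, with 62.0, 71.7, 72.6 and 60.9 CPM for Gfra2, Cecr2 and Cplx2 alone and for 2 or 3 genes. In library 2 the intervals of Flt3 overlapped among all 4 subsets, the Gfra2 subset holding a single UMI.

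Pro-B nuclei were also set against later B precursor nuclei, of which library 2 held 24. Among the 1175 genes that reached 30 UMIs per library over both sets, 34 (2.89%) were past 2-fold higher in pro-B nuclei and 5 (0.426%) past 2-fold lower. Pro-B nuclei hold most UMIs of that sum, so genes high in later B precursor nuclei could miss it, as Cacna1e did with 4 UMIs in pro-B and 21 in later B precursor nuclei of library 2. With 0.5 of the minimum, 37 of 2589 genes were higher and 45 lower, so the balance between the directions was set by the minimum. Cplx2 and Cecr2, which the rule counts, led. Cplx2 was at 4.27- and 16.5-fold and Cecr2 at 4.91-fold in library 1. In library 2, against 0 UMIs, Cecr2 was at 3.66-fold with the floor of 3 counts, and its exact lower limit was 2.93. With Cecr2 taken out of the rule its log2 ratio in library 1 turned to -0.21. Outside the rule Cit, the citron kinase of cell cleavage, came next (5.92-fold, 2.004 to 28.9, and 3.603-fold, 0.615 to 145), from 3 and 1 UMIs in later B precursor nuclei. Top2a followed, at 1084 and 729 CPM against 305 and 93.4 (3.55-fold, 2.49 to 5.24, and 7.81-fold, 2.65 to 38.1), and Kif11 and Anln joined it as the 3 of 14 tested G2/M genes that passed. Smc2, a condensin subunit, and Kif15 were also among the 12 highest, each from 1 to 9 UMIs in later B precursor nuclei, and the log2 ratio of Smc2 in library 2 turned to -0.046 without the 8% of nuclei with the most UMIs. Past 2-fold lower were Gse1 (103 and 73.2 CPM against 276 and 249.1, 0.372 and 0.294), Fos (0.390 and 0.326), Mbnl2, Cytip (0.395 and 0.280) and Jun (0.426 and 0.492). Fos and Jun encode parts of the AP-1 factor, and Cytip a binding partner of cytohesin. Igll1 missed the limit at 0.523 (0.357 to 0.792) and 0.481 (0.215 to 1.27). Restricted to pro-B nuclei no deeper than the 75th percentile of later B precursor nuclei, a choice made after the data were seen, 2 of 395 tested genes were past 2-fold higher, 0 lower, and 0 of 6 G2/M genes passed, with a list median log2 ratio of 0.56 and 0.74.

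In ATAC, 50 of 10959 peaks (0.456%) were past 2-fold higher and 7 (0.0639%) past 2-fold lower in pro-B than in later B precursor nuclei. The 6 highest rested on few counts in the later set, and in library 2 their intervals held 1 except where that set had 0 counts. The lowest of the 7 was a peak in an intron of Plekha2 (chr8:25067807-25068713), at 27.6 and 37.6 ATAC CPM against 78.3 and 102 (0.352, 0.256 to 0.495, and 0.370, 0.207 to 0.707), followed by a peak at the start of Ell2 (chr13:75707087-75707905, 0.429 and 0.334), an elongation factor used in antibody-secreting cells.

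RNA and ATAC were also joined gene by gene. Of the 272 genes past 2-fold higher as RNA, 134 (49.3%) had a peak past 2-fold higher within 20 kb of the gene, against 16.7% of all tested genes, and 18 of 263 with a tested promoter (6.84%, against 0.584%) had a higher promoter. A peak past 2-fold lower lay within 20 kb of 153 of the 272 (56.25%), against 56.3% of all tested genes. The 272 genes were longer than tested genes at the median (52792 against 33277 bp), and so were the 236 lower genes (59805 bp), of which 34 (14.4%) had a peak past 2-fold higher. The part of gene length in these shares was not tested.

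Levels within pro-B nuclei differed between the libraries, which stand in no group. Library 2 over library 1 gave a median log2 ratio of -0.67 over 4139 genes. These had at least 1 UMI in pro-B nuclei of each library and passed a minimum on the sum of both. The minimum of 20 UMIs per library applied only to the genes named here. Most B genes lay near or below that median, Vpreb1 at -0.61, Dntt at -0.76, Ebf1 at -1.06, Pax5 at -1.50 and Ighm at -1.70. Cplx2 gave 0.36 in pro-B nuclei and 0.11 in other kept nuclei. In those other nuclei Vpreb1 gave -1.27, Dntt -0.79, Ebf1 -1.95, Pax5 -2.27 and Ighm -1.57. The rule counts Cplx2, which alone admitted a larger share of the pro-B nuclei of library 2, as given above. The part of this choice in the ratios of Cplx2, Ebf1 and Pax5 between the libraries was not tested. Ribosomal RNA locus genes took a larger share of UMIs in library 2, as given above, and how far this sets the median was not tested.

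After thinning each nucleus to 1000 UMIs, 696 and 210 pro-B nuclei remained and 170 and 44 shallower ones were left out. Vpreb1 then had a UMI in 23.6% of pro-B nuclei (20.5 to 26.9) in library 1 and 18.1% (13.1 to 23.98) in library 2, against 1 of 63 erythroid nuclei in library 1 (1.59%) and 0 of 17 in library 2, a set that should lack the gene; without thinning the pro-B shares were 37.5% and 25.98%. Blnk had a UMI in 47.1% and 27.1%, Lef1 in 35.9% and 20.95%, and Dntt in 19.4% and 10.95% of pro-B nuclei, and all were at 0 in erythroid nuclei, which allows a share of up to 4.76% and 17.6% (3 counts). Without thinning, Dntt had a UMI in 2 of 18 erythroid nuclei of library 2 (11.1%, 1.38 to 34.7) against 18.1% (13.6 to 23.4) of pro-B nuclei, so there its share is not clear of background. With 17 erythroid nuclei in library 2, the thinned shares of Vpreb1 and of Lef1 (15.7 to 27.1) there are not clear of the limit of 17.6% either, nor is that of Dntt. Top2a had a UMI in 58.8% (55.0 to 62.4) and 48.6% (41.6 to 55.5) of pro-B nuclei, in 43.5% (36.2 to 51.0) and 33.7% (24.3 to 44.1) of unsplit B nuclei and in 39.7% and 29.4% of erythroid nuclei. At equal depth the pro-B share of Top2a was thus above that of unsplit B nuclei in library 1 beyond counting error, and in library 2 the intervals overlapped. At 500 UMIs, which kept more nuclei, the shares of library 2 were 32.0% (26.3 to 38.1) and 16.4% (10.8 to 23.5), which do not overlap. Mki67 at 1000 UMIs was in 48.6% (44.8 to 52.3) of pro-B and 38.0% (31.0 to 45.5) of unsplit B nuclei in library 1, and in 30% (23.9 to 36.7) and 31.6% (22.4 to 41.9) in library 2, so its intervals overlapped in both libraries.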

How the data were processed

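Lineage-negative, cKit-positive bone marrow cells of 1 Ctrl and 1 Lig pool were profiled by single-nucleus multiome sequencing. The authors ran Cell Ranger ARC 2.0.0 with GRCm38 (mm10) and deposited 1 matrix of counts without normalization: UMIs of 32272 genes and transposase insertions (ATAC) in 174339 peaks, over 18961 barcodes; the submitters' processing notes also name Seurat 4.0.3 and Signac 1.3.0. The study's cluster annotation was not used here. Members and gene lists were chosen with earlier results of these data known, and 1 member of the pre-B receptor list is not reported here.

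Counts were summed per set and library and divided by all UMIs (CPM) or all peak counts of the set. Ratios carry exact 95% intervals from the counts; ATAC intervals used pairs of counts, since 82.5% of nonzero peak entries were even. A gene, peak or promoter was called past 2-fold where the ratio reached 2 (or 0.5) in both libraries, among genes with at least 100 UMIs or peaks with at least 400 counts per library (30 and 100 against later B precursor nuclei), and promoters with at least 40. Ratios against 0 counts used a floor of 3. Erythroid nuclei had at least 2 UMIs of Car1, Ank1 and Klf1. Named were the genes of the rule, list members by role, and the 12 highest and 8 lowest genes and 6 highest peaks by the less extreme of the libraries' ratios. Doublets were handled only by leaving out the 8% of nuclei with the most UMIs, as an alternative. Positions, and the gene starts behind all promoter ATAC values, came from GENCODE M21, which matched 99.8% of gene IDs. The printed promoter sequence and the motif shares over promoters came from RefSeq. Alternatives changed the filters, scaling, rule and depth. The code was tested on simulated data (Python 3.11.15, NumPy 2.4.6, SciPy 1.17.1, pandas 2.3.3, Matplotlib 3.10.9).

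With 1 pool per group and no map from suffix to sample, no p-value was computed and no effect of ligature was examined.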

Additional observations from a re-analysis of the deposited data

Results flagged for a closer look

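Barcodes outside the limits on genes and ATAC counts were not analysed above, and some of them met the RNA rule for pro-B nuclei. They were 3.47% of the barcodes left out in library 1 (99 of 2857, 2.83 to 4.20) and 1.05% in library 2 (26 of 2485, 0.685 to 1.53). Both shares were below the 14.7% and 3.29% of kept nuclei that met the rule. In library 1, 62 of them exceeded the upper limit on ATAC counts, 34 fell under the lower limit and 3 had too few genes, and in library 2 the numbers were 9, 14 and 4, where 1 barcode failed on both. Their median depth was 2421 UMIs and 52524 ATAC counts in library 1 and 1969.5 UMIs and 966.5 ATAC counts in library 2.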

How the results depend on the processing

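No paired analysis was possible because no groups were compared and the barcodes carry no replicate number. Pro-B shares of 14.7% and 3.29% became 15.8% and 5.43% with at least 500 genes, 13.4% and 2.27% with at least 3 UMIs of Ebf1 and Pax5, and 11.01% and 2.68% without Cecr2 in the rule. Against other kept nuclei, 272 higher and 236 lower genes became 56 and 56 at 5 times the minimum and 119 and 132 with 500 genes, and 6469 were higher with no filter, where the floor of 3 counts raises genes absent from pro-B nuclei. The 2877 and 13367 peaks became 5750 and 25534 at 0.5 of the minimum, 107 and 477 at 5 times it and 449 and 2675 with 500 genes. Against later B precursor nuclei, 34 higher genes became 3 at 5 times the minimum, 21 with 3 UMIs of Ebf1 and Pax5, 20 without Cecr2, 14 with 500 genes and 2 with pro-B nuclei of limited depth, and the 5 lower became 45 at 0.5 of the minimum (beside 37 higher), 0 at 5 times it, 4359 with no filter, 3 with 3 UMIs, 2 without the 8% of nuclei with the most UMIs and 0 at limited depth. The 50 higher peaks became 195, 0, 23, 16 and 2 (0.5 of the minimum, 5 times it, 3 UMIs, without Cecr2, limited depth), and the 7 lower 89, 0, 3, 3 and 0 in that order, 4 without the 8% and 2 with 500 genes. Fewer or more features passed the minimum under most of these settings. Against other kept nuclei the share of higher peaks, 4.56%, was 0.871% at 5 times the minimum and 1.92% with 500 genes. Lower peaks, 13367 of 63031, were 477 of 12282 and 2675 of 23359, so the peak shares also depended on these settings. Shares of higher genes were 4.25%, 3.41% and 3.46% in that order. Beyond these shares the cause was not tested.

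Of the lists against other nuclei, 7 B lineage factors became 3 at 5 times the minimum, 11 with no filter and 3 with 500 genes, 7 pre-B receptor genes 1, 11 and 3, and 18 G2/M genes 7 at 5 times the minimum and 9 with 500 genes. The 1 recombination gene became 4 with no filter, and the 1 S phase gene 0 by median of ratios, at 5 times the minimum and with 500 genes. The 3 G2/M genes against later B precursor nuclei became 1, 5, 5, 1 and 0 (5 times the minimum, 3 UMIs, without the 8%, 500 genes, limited depth). Promoter ratios moved to 3.69 at Ebf1 and 3.26 at Cecr2 in library 1 without Cecr2 in the rule and to 1.57 at Cplx2 in library 2 with 500 genes, below the 2-fold limit. Vpreb1 shares were 13.6% and 10.3% at 500 UMIs and 37.5% and 25.98% unthinned. The CAGCTG share of 40.1% was 37.6%, 46.7% and 42.8% (0.5 of the minimum, 5 times it, 500 genes). Log2 ratios over later B precursor nuclei that turned were Cecr2 in library 1 without Cecr2 in the rule (-0.21), and in library 2 Smc2 without the 8% (-0.046), Slc10a7 with 500 genes (-0.39), Adnp with 3 UMIs and 500 genes (-0.60 and -0.66), Pcgf5 with 3 UMIs and without the 8% (-0.60 and -0.38) and Igll1 with 500 genes (0.80). The other 142 summary values stayed within their limits, including the counts against other nuclei of matched depth (281 and 232 genes, 3064 and 13681 peaks). For counts these limits compare numbers, not which features passed. At matched depth, 267 of the 281 higher genes and 2862 of the 3064 higher peaks were among those of the main setting. Against later B precursor nuclei with 500 genes, only 3 of 34 higher peaks and 6 of 14 higher genes were, and with 3 UMIs 9 of 23 higher peaks. The alternative of limited depth was chosen after seeing the data. Few nuclei (24 in library 2) and low depth (a median of 840 and 916 UMIs) limit the values of later B precursor nuclei.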
